A study of Mus musculus with 8 samples.

Results

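The cells described here are mesenchymal cells of embryonic day 13 (E13) mouse back skin. In each cell more of the genes Osr1, Agtr2, Ogn, Osr2 and Figf were detected than of the superficial dermal genes Crabp1, Nrgn, Calb1, Lix1 and Sp5. The cells were chosen by these detected genes. Barcodes of the 4 E13 libraries entered when they had at least 1000 genes, at most 10% mitochondrial UMIs (unique molecular identifiers, 1 per captured RNA molecule), fewer than 3 of the 6 epithelial markers Epcam, Cdh1, Cldn7, Esrp1, Grhl2 and Rab25, and 0 UMIs of Cdh5, Ptprc, Sox10, Myog and Rgs5. A counted how many of Crabp1, Nrgn, Calb1, Lix1 and Sp5 were detected, B counted how many of Osr1, Agtr2, Ogn, Osr2 and Figf were detected, and members had B minus A of at least 2. This gave 537 members among 2233 mesenchymal cells (24.0%), with 113 in the wild-type library (WT), 114 in the heterozygous library (HET), 224 in knockout library 1 (KO 1) and 86 in knockout library 2 (KO 2). Cells with A minus B of at least 2 are called superficial cells and those between the limits middle cells. Position in the skin was not measured, so "deep" and "superficial" refer to marker genes alone.

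The libraries were made with a 10x 3' kit from dissected back skin that was dissociated with collagenase and trypsin. In the mutants GFP was knocked in at the deltaN isoform of p63, a transcription factor encoded by Trp63. WT carried no knock-in, HET was a knock-in heterozygote, and KO 1 and KO 2 were knock-in knockouts. The design names controls and p63 knockouts, and here the libraries WT and HET form the control arm (n = 2) and are compared with KO 1 and KO 2 (n = 2). HET animals keep a mutant copy, and the labels do not say whether a library came from 1 embryo or from a pool, so p-values measure only the spread between these libraries.

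Trp63, checked in barcodes with at least 3 epithelial markers, had 847 UMIs in WT, 519 in HET, 19 in KO 1 and 20 in KO 2. The 4 libraries held 17191558 to 26456164 UMIs in 731 to 1223 barcodes, and no pair of E13 libraries shared more than 2 barcodes. KO 2 stood apart in what the rule removed: 54.7% of its quality barcodes had a UMI of Cdh5, Ptprc, Sox10, Myog or Rgs5, against 24.4 to 33.7% in the other libraries, and 42.5% had a UMI of the muscle gene Myog, against 10.7 to 22.9%. Depth of members was even, with medians of 15382, 15491, 15642 and 16383.5 UMIs and 4040, 4054, 3972 and 4076.5 genes per cell in WT, HET, KO 1 and KO 2.

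Skin mesenchyme at this stage forms an outer layer that becomes dermis and hosts hair follicle induction, and inner layers that become lower dermis, fascia and fat. Osr1 and Osr2 encode odd-skipped zinc finger transcription factors of connective tissue and limb mesenchyme. Agtr2 encodes the type 2 angiotensin receptor, Ogn the small leucine-rich proteoglycan osteoglycin, and Figf the lymphangiogenic growth factor VEGF-D. Sfrp2 encodes a secreted Wnt antagonist and was no part of the selection. p63 is an epithelial factor, and its loss leaves an embryo without stratified epidermis over this mesenchyme.

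Sfrp2, the only marker of the label outside the rule, was present in most members. Sfrp2 was detected in 92.0, 88.6, 94.2 and 94.2% of members in WT, HET, KO 1 and KO 2, and in 54.9, 37.2, 69.2 and 58.3% of superficial cells. After each cell was thinned to 5000 UMIs these shares were 74.3, 71.9, 78.1 and 68.6% in members and 26.8, 16.03, 32.2 and 28.3% in superficial cells, so members were higher in every library at equal depth. The rule's own genes are given as a description. Osr1 was detected in 92.0 to 99.1% of members per library, Agtr2 in 93.8 to 97.4%, Ogn in 89.5 to 96.0%, Osr2 in 74.4 to 84.1% and Figf in 67.4 to 85.8%. Osr1 and Agtr2 were found together in 486 of the 537 members (90.5%), and Osr2 and Figf, the least joined pair, in 325 (60.5%). Crabp1, the cellular retinoic acid binding protein of dermal fibroblasts, was still detected in 94.7 to 100% of members, and Lix1 in 40.7 to 67.3%. Nrgn was detected in 15.6 to 37.2%, Sp5 in 5.36 to 12.3% and Calb1 in 0 to 7.89% of members. Osr1 was not particular to members, since 56.7 to 75.3% of superficial cells also had a UMI of it.

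The selection cuts a continuous range. Between the 281 cells at a score of 1, just outside, and the 275 cells at a score of 2, just inside, summed levels over the 4 libraries moved from 195 to 261 CPM (the gene's UMIs relative to all UMIs of those cells) for Osr1, from 175 to 258 CPM for Agtr2, from 156 to 194 CPM for Ogn, from 89.4 to 164 CPM for Osr2 and from 61.2 to 105 CPM for Figf. Sfrp2 stood at 289 CPM at a score of 1, 378 CPM at 2 and 640 CPM in the 262 cells at 3 or more, so it was also higher at higher scores.

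**Figure D1:**
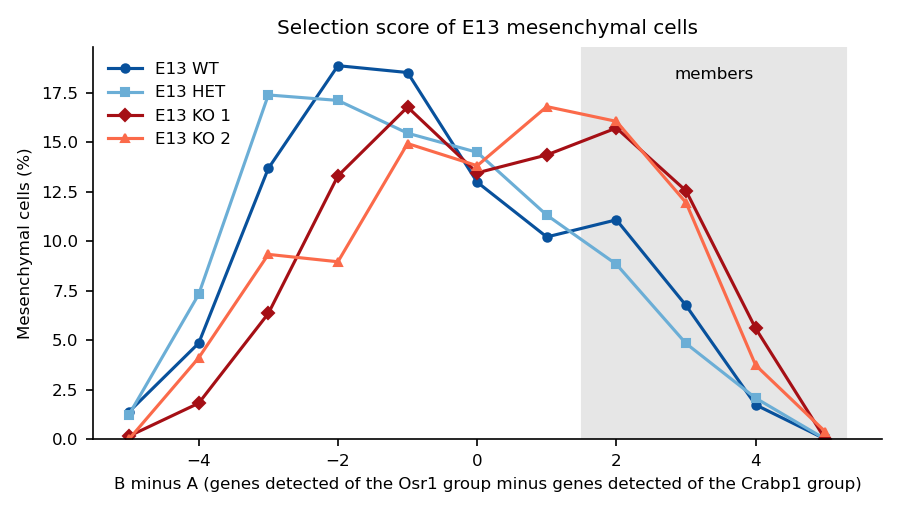
Share of mesenchymal cells (y axis, % of the library) at each selection score B minus A (x axis) in the 4 E13 libraries, with the scores of members shaded. The KO 1 and KO 2 lines lie above both control lines at scores of 1 to 4 and below them at scores of -4 to -2.

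Members took a larger share of mesenchymal cells in the KO libraries. They were 19.6% in WT (exact Clopper-Pearson 95% interval 16.4 to 23.0), 15.7% in HET (13.1 to 18.6), 33.8% in KO 1 (30.2 to 37.6) and 32.1% in KO 2 (26.5 to 38.0), where the intervals cover counting error only. The means were 17.6% ± 2.71 in control and 33.0% ± 1.24 in KO (SD, n = 2 each), a difference of 15.3 percentage points with no overlap of the arms. Superficial cells went the other way, with 38.8, 43.0, 21.6 and 22.4% in WT, HET, KO 1 and KO 2. No test is given, since an exact permutation test of 2 against 2 libraries cannot go below p = 0.33. Crabp1, a gene of the rule, was itself lower in KO members, but was detected in at least 94.7% of members in every library. Other rule genes changed in detection in middle cells. Calb1 was in 5.42 and 3.28% of KO 1 and KO 2 middle cells, against at least 17.7% in control. Ogn was in 47.7, 47.2, 64.7 and 68.9% in WT, HET, KO 1 and KO 2. Both raise B minus A in KO, while Figf (52.7, 50.5, 34.9 and 38.5%) and Lix1 (72.2, 73.2, 78.0 and 78.7%) lower it. Their part in the share was not tested. The depth of dissection is not recorded, so a change in cells and a change in what was dissected or detected cannot be told apart. Thinning to 5000 UMIs kept the order of the members' shares, at 14.9, 12.1, 23.7 and 22.4%. As a share of all quality barcodes members were 12.5, 9.55, 20.6 and 12.1%, so KO 2 fell below WT on that denominator, beside its large Myog fraction.

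Against superficial cells of the same libraries, the genes highest in members included genes of matrix proteins, secreted signals and transcription factors, among them Dpt, Fgf7, Igf1 and Gata6. The contrast is that of the rule and is given without a test, as the log2 ratio of CPM in members to superficial cells with 1 CPM added. Of 7338 genes detected in at least 20% of the cells of the higher class, 181 (2.47%) had a log2 ratio above 1 in 4 of 4 libraries and 99 (1.35%) had one below -1. Dpt, which encodes the collagen-binding protein dermatopontin, led with 86.1, 88.6, 74.9 and 98.3 CPM in members of WT, HET, KO 1 and KO 2 and 2.19, 4.59, 1.99 and 2.02 CPM in superficial cells. Its log2 ratio was 4.62 ± 0.44 (SD, n = 4 libraries). All 4 libraries gave nearly the same ratio for Sfrp2, at 2.96 ± 0.13, and for Bnc2, a zinc finger gene of connective tissue, at 3.02 ± 0.16.

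Signalling genes were among those leaders. The ligand genes Fgf7 (log2 ratio 3.90 ± 0.32), Igf1 (3.79 ± 0.46), Nrg1 (3.48 ± 0.76) and Wnt2 (2.63 ± 0.36) were higher in members in all 4 libraries, as were the guidance ligand Sema3c (3.41 ± 0.51) and the Wnt antagonist genes Sfrp1 (2.999 ± 0.23) and Dkk2 (2.46 ± 0.91). Matrix genes among the leaders were Aspn (asporin, 3.46 ± 0.45), Smoc2 (2.99 ± 0.35), the aggrecanase gene Adamts5 (4.35 ± 1.05) and Cemip (4.37 ± 0.59), whose product degrades hyaluronan. Transcription factor genes were Gata6 (4.48 ± 0.79), Klf4 (3.58 ± 0.80), Creb5 (3.27 ± 0.62), Dmrt2 (3.61 ± 0.43) and the imprinted gene Plagl1 (3.05 ± 0.25). The other leaders were Tmeff2, Rgcc, Prss23, Nrk, Atp1b1 and Lurap1l, with mean log2 ratios between 3.02 and 4.07.

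The genes lowest in members included Wnt and FGF response genes. Beside the rule genes Calb1, Sp5 and Nrgn, low ratios in all 4 libraries included those of Casz1 (-3.97 ± 0.53), the transcription factor gene Runx3 (-3.68 ± 0.64), the arginine synthesis gene Ass1 (-3.56 ± 0.49) and Notum (-3.37 ± 0.94), which encodes a secreted Wnt deacylase. Etv4, an FGF response gene, was at -2.75 ± 0.69. The remaining genes of this group were Serpinc1, Nrcam, Calb2, Anks1b, Nrxn2, Erich2 and Mllt3, with means between -3.38 and -2.51.

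**Figure D2:**
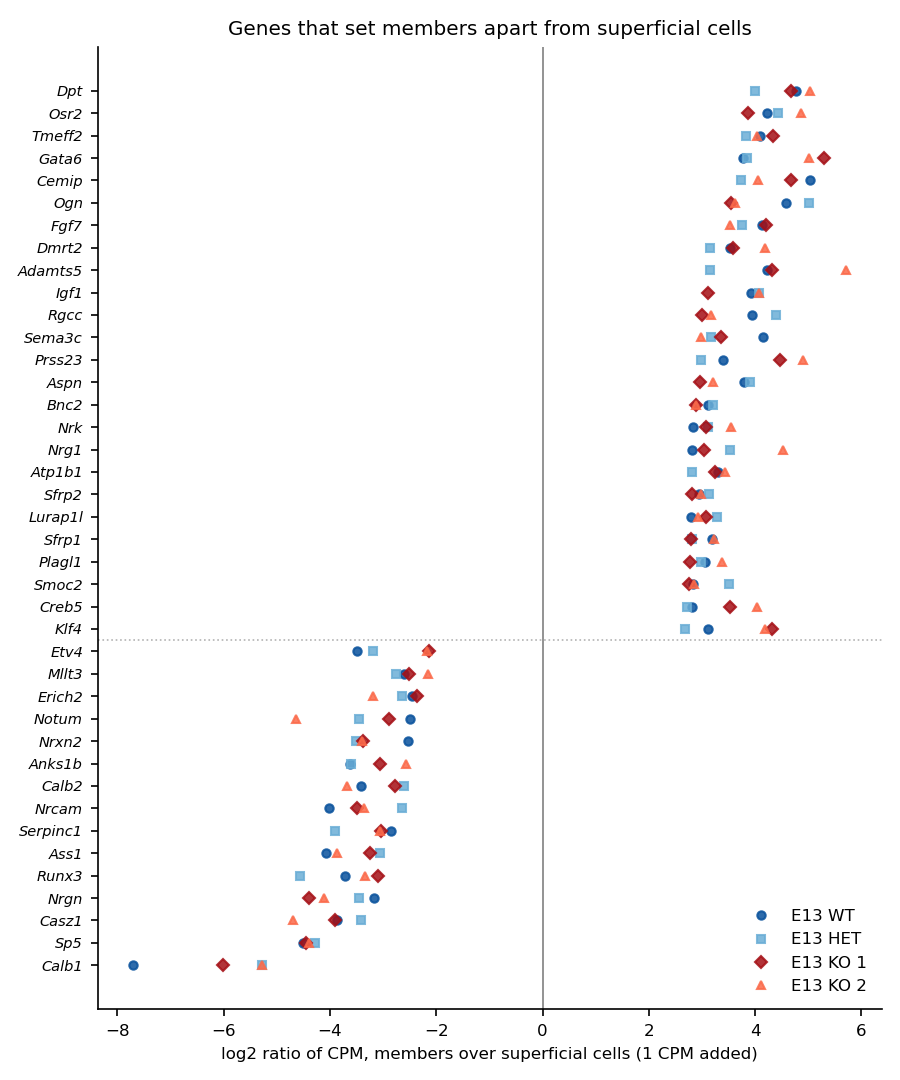
Log2 ratio of CPM in members to superficial cells (x axis, 1 CPM added) for the 25 genes highest and the 15 genes lowest in members, with 1 point per E13 library. The 4 libraries lie on the same side of 0 for each gene, and Sfrp2, which the rule did not use, spans 2.81 to 3.12.

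The pathway lists differed in direction. In the Wnt response list 5 of 7 measured genes were below -1 in all libraries, namely Lef1, Nkd1, Notum, Tcf7 and the rule gene Sp5, and none was above 1. Without Sp5 it was 4 of 6, and the median log2 ratio was -1.95 against -0.01 over all 7338 genes. The secreted Wnt antagonists were split, with Sfrp1, Sfrp2 and Dkk2 higher and Dkk1 and Wif1 lower. In the IGF axis Igf1, Igf2, Igf2r and Igfbp3 were higher (4 of 8, median 1.11), and the imprinted growth genes Dlk1, H19, Igf2, Cdkn1c and Plagl1 were higher (5 of 15, median 0.84). Among collagens and fibrillar matrix, Col12a1, Tnc, Postn, Fbln5, Lox and Thbs2 were higher and Fbln1 lower (median 0.92 over 26 genes). The lower dermis list had Dlk1, Creb5, Cd34 and Klf4 higher among 11, and the upper dermis list had the rule gene Crabp1 and Dkk1, Lef1, Wif1 and Inhba lower but Dkk2 and Fgf7 higher among 15. Proliferation genes were lower as lists, with medians of -0.64 for 25 S phase genes and -0.81 for 25 G2 and M phase genes, although no single gene passed a log2 ratio of -1 in every library. Immediate early genes of the dissociation list, Fos, Fosb and Btg2, were higher, with a list median of 0.80 over 14 genes. The FGF and ERK list had Fgf7 and Fgf18 higher and Dusp6, Etv4 and Etv5 lower among 10 (median -0.52), and 1 of 7 Wnt ligand genes, Wnt2, was higher. Lists of Hedgehog, Notch and hypoxia genes had no gene beyond a log2 ratio of 1 or -1 in all 4 libraries.

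Markers of other cell types were found in members at levels that differed between the lists. Against superficial cells, the 2 measured cartilage markers, Col11a1 and Mgp, had a log2 ratio above 1 in all 4 libraries. So did Acta2, 1 of 2 measured mural markers. No gene of the other cell type lists did. Cdh5, Ptprc, Sox10, Myog and Rgs5 were at 0 by the rule. The 14 epithelial markers summed to 198, 103, 93.3 and 191 CPM in WT, HET, KO 1 and KO 2, against 2395 to 4484 CPM in epithelial barcodes. Cartilage markers summed to 66.7, 48.9, 90.9 and 90.0 CPM, with Acan, Matn1 and Lect1 at 0 in all 4 libraries, and tendon markers to 61.0, 83.4, 95.6 and 77.7 CPM. Mural markers summed to 242, 482, 483 and 461 CPM, with Rgs5 and Higd1b at 0 in all 4, and fat cell markers to 26.01, 30.2, 47.7 and 32.3 CPM, with Adipoq, Plin1 and Retn at 0 in all 4. Red cell genes summed to 4155, 5852, 3549 and 10799 CPM. Only 1 member, in KO 2, had over 50% haemoglobin UMIs.

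Members were not uniform. Clustering of the 537 cells gave 7 subclusters, which are called by number because none had 3 markers of 1 cell type among its 10 leading genes. Subcluster 0 (123 cells) was led by Fgf12, Sv2b, Nsg2, Tac1 and Cntn3, subcluster 1 (84 cells) by Nppc, Gfra1, Cdh13, Cpm and Syt13, and subcluster 3 (39 cells) by Ass1, Nrcam, Casz1, Samd5 and Nrn1, of which the first 3 were among the genes highest in superficial cells. Subcluster 2 (108 cells) was led by the mitosis and histone genes Prc1, Hist1h2ap, Fam83d, Ttk and Nek2 and had the highest median depth, 21160 UMIs. Subcluster 4 (77 cells) was led by Gria2, Tubb3, Stmn2 and C130021I20Rik. Subcluster 5 (64 cells) was led by Rasgrf1, Hpgd, Syt4, Galnt13 and Wnt2, and subcluster 6 (42 cells) by Ebf2, Meox1, Sox9 and Fmo1.

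The marker genes varied across these subclusters. Sfrp2 was at 1325 CPM in subcluster 6 and 109 CPM in subcluster 3, Osr2 at 422 CPM in subcluster 0 and 45.6 CPM in subcluster 1, and Agtr2 at 474 CPM in subcluster 1 and 128 CPM in subcluster 4. Subclusters 5 and 6 were held mostly by KO libraries: subcluster 5 had 1, 9, 38 and 16 cells and subcluster 6 had 0, 0, 38 and 4 cells in WT, HET, KO 1 and KO 2. Control cells were 15.6% of subcluster 5 and 0% of subcluster 6, against 42.3% of all members. Subcluster 3 leaned the other way, with 9, 21, 4 and 5 cells in WT, HET, KO 1 and KO 2 and 76.9% control cells. Its Ptn level, 216 CPM, was the lowest of the subclusters, and its Tcf4 level, 447 CPM, the highest. Some of the genes that lead subclusters 5 and 6 are also called between KO and control. The sizes are therefore not compared as a result and are given beside the genes they touch.

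**Figure D3:**
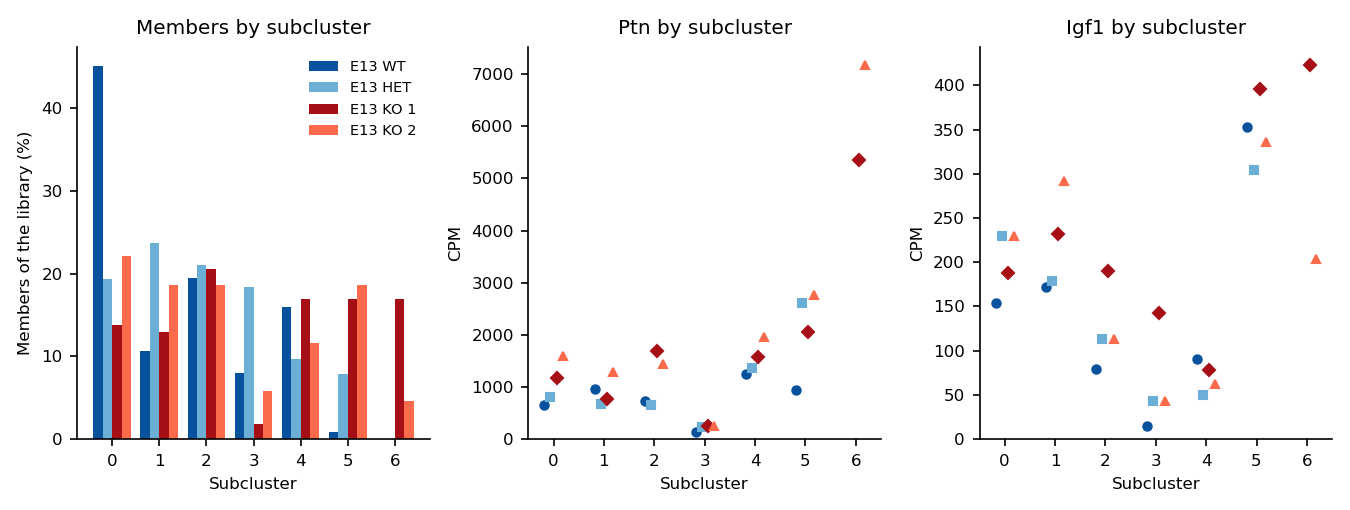
Left, share of each library's members (y axis, %) in the 7 subclusters (x axis); middle and right, CPM of Ptn and Igf1 (y axis) by subcluster and library. Ptn reached 5362 and 7168 CPM in the KO 1 and KO 2 cells of subcluster 6, which has no control cell, and lay between 129 and 2761 CPM elsewhere.

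Within members, few genes were called between KO and control at 2 libraries an arm. With UMIs summed per library, edgeR called 41 of 10004 tested genes at an adjusted p under 0.05 (0.410%). Of the 41, 29 rose (0.290% of tested genes) and 12 fell (0.120%) in KO. An unadjusted edgeR p under 0.05 was found for 851 of the 10004. KO and control libraries did not overlap for any of the 41, but the same held for 40.8% of all tested genes. The calls included interferon-induced genes, epithelial genes and genes of the members' own programme, among them the growth factor gene Ptn. Of the 29 rises 11 were genes higher in members than in superficial cells, and of the 12 falls 4 were genes lower in members. The 10004 tested genes held 181 of the higher genes and 76 of the lower genes. Both sets were chosen on these same libraries, KO included. Other calls were of none of the kinds named above. Of the 41, 17 were also called in superficial cells, where the same test called 101 of 10735 genes (0.941%). When subclusters 5 and 6 were left out, 11 of the 41 remained called. These were Ptn, Ifitm3, Bst2, Ifi27, Gm10093 and the epithelial genes Krt14, Krt5, Krt15, Perp, Krt8 and Krt18. Subcluster 3, of mostly control cells, was kept in that setting, and its part in the calls was not tested.

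The genes that define the members did not pass. Osr1 was at 305, 308, 265 and 309 CPM in WT, HET, KO 1 and KO 2 (log2 change -0.02 ± 0.13 SE) and Agtr2 at 357, 328, 271 and 333 CPM (-0.11 ± 0.13). Ogn (0.12 ± 0.17), Osr2 (-0.14 ± 0.24) and Figf (-0.14 ± 0.20) had edgeR adjusted p-values of 0.903, 0.931 and 0.908. These genes chose the cells, so the rule bears on their level in both arms. The sign of each of the 5 turned when 1 library or setting was changed. Sfrp2, outside the rule, was at 477, 356, 605 and 458 CPM, with overlapping arms (0.44 ± 0.16, edgeR adjusted p = 0.446).

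**Figure D4:**
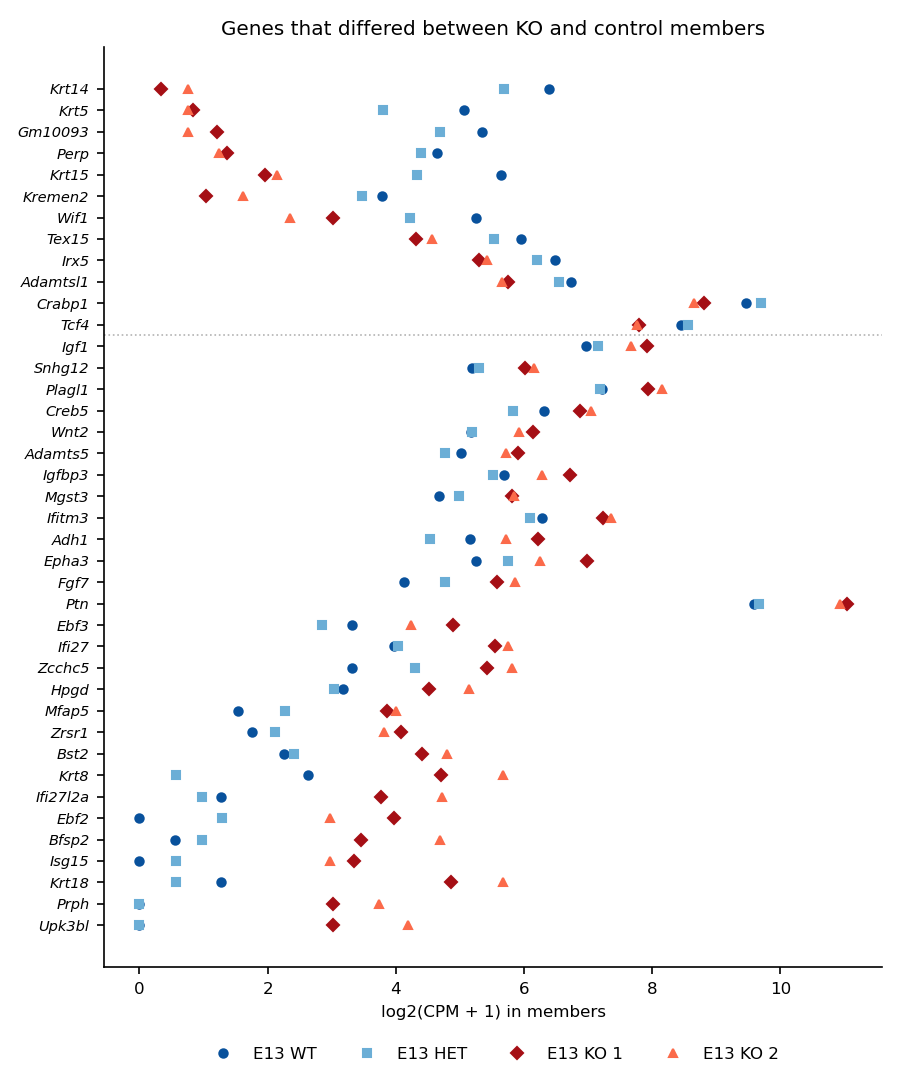
Level of 40 of the 41 called genes in members (x axis, log2 of CPM plus 1) with 1 point per library, ordered by log2 fold change from the strongest fall at the top to the strongest rise at the bottom. KO points lie left of control points above the dotted line and right of them below it, with no overlap for any of the 40 genes drawn.

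Ptn, which encodes the heparin-binding growth factor pleiotrophin (GRCm38 chromosome 6, 36714929 to 36810220, minus strand), had the firmest rise. It was at 771 and 815 CPM in WT and HET and at 2094 and 1950 CPM in KO 1 and KO 2, from 1630, 1701, 7994 and 2838 UMIs. The log2 change was 1.43 ± 0.10 (SE, edgeR adjusted p = 0.000108). Without subclusters 5 and 6 it was 1.04 (edgeR adjusted p = 0.00532). Both KO libraries were above both control libraries in 4 of the 6 subclusters that had cells of all libraries. No share over all genes is at hand for this count. In superficial cells Ptn was at 313, 221, 440 and 410 CPM (0.68, edgeR adjusted p = 0.0726). The difference between the classes was itself called, at 0.73 ± 0.14 (edgeR adjusted p = 0.0246), but without WT it was 0.44 with an adjusted p of 0.179. Against all other mesenchymal cells, middle cells included, it was 0.10 with an adjusted p of 0.898, so the rise of Ptn was not shown to be larger in members than in the rest of the mesenchyme. Ptn was named after its values were seen.

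The IGF axis rose in part. Igf1 (chromosome 10, 87858265 to 87937042), which encodes insulin-like growth factor 1, was at 124, 142, 242 and 202 CPM in WT, HET, KO 1 and KO 2 (log2 change 0.83 ± 0.13, edgeR adjusted p = 0.032). Igfbp3, which encodes a carrier that binds it, was at 50.6, 44.6, 105 and 77.0 CPM (1.04 ± 0.17, edgeR adjusted p = 0.032). These were 2 of 10 tested genes of the list, and 9 of the 10 had a positive log2 change. The list median was 0.58. Across all 10004 tested genes 29 rose, 5039 were above 0 and the median was 0.00. Without subclusters 5 and 6 neither was called, at 0.52 for Igf1 (edgeR adjusted p = 0.425) and 0.53 for Igfbp3 (0.63). In superficial cells Igf1 was at 7.29, 7.51, 27.1 and 11.1 CPM. The difference between the classes was not called for Igf1 or Igfbp3.

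Other genes higher in members also rose in KO. Fgf7, the keratinocyte growth factor gene, went from 16.5 and 26.4 to 46.9 and 57.0 CPM (1.32 ± 0.24, edgeR adjusted p = 0.0416) and Wnt2 from 35.0 and 35.5 to 69.4 and 59.8 CPM (0.97 ± 0.16, 0.0345). Plagl1 rose by 0.92 ± 0.13 (edgeR adjusted p = 0.0173), Creb5 by 0.95 ± 0.17 (0.0402), Adamts5 by 1.03 ± 0.18 (0.0374), the ephrin receptor gene Epha3 by 1.28 ± 0.23 (0.0425), the retinol and alcohol dehydrogenase gene Adh1 by 1.26 ± 0.23 (0.0416) and Zcchc5 by 1.84 ± 0.29 (0.032). Of the 25 genes highest in members 5 rose and none fell, with a median log2 change of 0.68, and 22 of the 25 were above 0. Among all 10004 tested genes 29 rose, 12 fell and 5039 were above 0. The list of 25 was chosen on these same libraries. Among the 25 only Klf4 was called for a KO effect that differed from superficial cells. Mean B minus A of members was 2.52 and 2.57 in WT and HET and 2.70 and 2.64 in KO 1 and KO 2. The part of this difference in the rises was not tested. Without subclusters 5 and 6 none of the 8 genes from Fgf7 to Zcchc5 was called. The log2 change was then 0.85 for Fgf7, 0.54 for Wnt2, 0.50 for Plagl1, 0.34 for Creb5, 0.50 for Adamts5 and 0.85 for Epha3, while it was 1.13 for Zcchc5 and still 1.22 for Adh1 (edgeR adjusted p = 0.16). Wnt2, Adamts5 and Epha3 are among the leading genes of subcluster 5, which was chosen for leaving out after the data were seen.

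The transcription factor genes Ebf2 and Ebf3, early B cell factor genes of fat and connective tissue precursors, rose together with Mfap5, a microfibril gene of fascia fibroblasts, and Hpgd, which encodes the prostaglandin-degrading dehydrogenase. Ebf2 had 0, 3, 56 and 10 UMIs in WT, HET, KO 1 and KO 2, a KO to control ratio of 17.5 (exact counting interval 5.74 to 87.2, edgeR adjusted p = 0.0427). Ebf3 had 19, 13, 109 and 26 UMIs (log2 change 1.75 ± 0.31, edgeR adjusted p = 0.0399), and without KO 1 it was 1.33 with an adjusted p of 0.128. Mfap5 had 4, 8, 52 and 22 UMIs (2.36 ± 0.42, 0.0399) and Hpgd 17, 15, 84 and 50 UMIs (1.88 ± 0.31, 0.0345). Ebf2 and Ebf3 are leading genes of subcluster 6, Hpgd and Mfap5 of subcluster 5, so the loss of their calls is tied to which subclusters were left out, a choice made after the data were seen. Without these subclusters Ebf2 and Mfap5 had too few counts to be tested, Hpgd was at 1.19 (edgeR adjusted p = 0.617) and Ebf3 at 0.83 (0.715). Hpgd was higher in both KO libraries than in both control libraries in subclusters 2, 4 and 5 and lower in subcluster 0.

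Of the 6 genes that fell beside epithelial genes and Gm10093, 4 were also lower in members than in superficial cells in all 4 libraries (Crabp1, Wif1, Tex15 and Irx5). Crabp1 was at 702, 826, 445 and 399 CPM in WT, HET, KO 1 and KO 2 (log2 change -0.78 ± 0.12, edgeR adjusted p = 0.032). It is a gene of the rule, so the choice of cells bears on its level. In superficial cells Crabp1 was at 2816, 3724, 2137 and 1973 CPM, and the difference between the classes was not called. Tcf4, which encodes a basic helix-loop-helix factor, was at 350, 376, 220 and 217 CPM (-0.66 ± 0.12, edgeR adjusted p = 0.0402) and Irx5, an Iroquois homeobox gene, at 88.4, 72.3, 38.3 and 41.9 CPM (-0.94 ± 0.17, 0.0399). Wif1, which encodes a secreted Wnt inhibitor, fell by 2.07 ± 0.38 (edgeR adjusted p = 0.0475), and without WT its adjusted p was 0.0643. Tex15 fell by 1.32 ± 0.21 (edgeR adjusted p = 0.032) and Adamtsl1, a secreted matrix gene, by 0.86 ± 0.15 (0.0345). In members over superficial cells the mean log2 ratios were -2.18 for Crabp1, -0.96 for Tcf4, -1.68 for Irx5, -2.59 for Wif1, -1.68 for Tex15 and -0.49 for Adamtsl1. Without subclusters 5 and 6 each of the 6 kept a negative log2 change, between -1.89 and -0.60, and none was called.

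Interferon-induced genes rose in members of both KO libraries. Ifitm3, which encodes an antiviral membrane protein (chromosome 7, 141009586 to 141010770), was at 77.1, 67.6, 149 and 163 CPM in WT, HET, KO 1 and KO 2 (log2 change 1.18 ± 0.14, edgeR adjusted p = 0.00452). Bst2, the gene of the virion-retaining protein tetherin (chromosome 8, 71534255 to 71537456), was at 3.78, 4.31, 20.2 and 26.8 CPM (2.55 ± 0.34, 0.0108). Ifi27 (chromosome 12, 103434211 to 103440239) was at 14.7, 15.3, 45.8 and 52.9 CPM (1.77 ± 0.21, 0.00452). Isg15, a ubiquitin-like modifier gene (chromosome 4, 156199424 to 156200818), had 0, 1, 35 and 10 UMIs, a KO to control ratio of 35.9 (exact counting interval 6.12 to 1448, edgeR adjusted p = 0.032).

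Over all 10004 tested genes 29 rose, 12 fell and 5039 had a log2 change above 0, with a median of 0.00. The interferon list had 4 rises and no fall among 12 tested genes, and 11 of the 12 were above 0, with a median of 0.87. Of the genes that did not pass, B2m, the light chain of MHC class I, was at 129, 143, 176 and 210 CPM, whereas H2-K1 overlapped at 7.09, 9.58, 6.29 and 10.996 CPM. Ifi27l2a, outside the list, went from 3 and 2 UMIs to 48 and 37 UMIs (3.90 ± 0.58, edgeR adjusted p = 0.0223). It lies next to Ifi27 and the genes are related, so reads could have been divided between them. The rise was not limited to members: in superficial cells the log2 change was 1.46 for Ifitm3 (edgeR adjusted p = 0.000284), 2.88 for Bst2 (0.000284) and 1.86 for Ifi27 (0.00179), and Isg15 had 2, 1, 52 and 11 UMIs. The difference between the classes was not called for any of the 4, with adjusted p-values of 0.753 to 0.984. In epithelial barcodes Ifitm3 went the other way, at 780, 615, 65.6 and 94.6 CPM. Bst2 was higher in both KO libraries than in both control libraries in 6 of 6 subclusters, Ifitm3 and Isg15 in 5 of 6 and Ifi27 in 3 of 6. No share over all genes is at hand for these counts. Some rest on few cells: subcluster 5 had 1 WT cell, and subcluster 3 had 4 and 5 cells in KO 1 and KO 2. In subcluster 5 Bst2 was at 0, 21.2, 21.5 and 40.2 CPM in WT, HET, KO 1 and KO 2.

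Since these genes moved together, the 250 bases upstream of each called gene's start were searched for GAAANNGAAA, the core of the interferon-stimulated response element, on both strands, in the promoter sequences of RefSeq on GRCm38.p6. Of 27 called genes with a sequence, 3 held it, against 978 of all 32851 promoters (2.98%). These were Isg15 with 3 matches, Bst2 with 2 and Kremen2 with 1. In Isg15 and in Bst2 each match overlaps the next, so they form 1 continuous stretch per promoter. The windows of the 2 interferon genes are shown with the first match in capitals, 5′ to 3′ on the gene's minus strand, at chr4:156200867-156200916 and chr8:71537573-71537622.
Isg15: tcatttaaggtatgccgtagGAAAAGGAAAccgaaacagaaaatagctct
Bst2: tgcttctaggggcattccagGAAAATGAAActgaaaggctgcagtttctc
The matches start 78 bases before the start of Isg15 and 130 before that of Bst2, counted from the start in the promoter table, which for Bst2 is not the gene end given above. Ifitm3 had no match in its 250 bases, and no promoter sequence was at hand for Ifi27 and Ifi27l2a.

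Epithelial genes were called in both directions in members. Krt14, the keratin of basal keratinocytes, had 175, 106, 1 and 1 UMIs in WT, HET, KO 1 and KO 2, a control to KO ratio of 176 (exact counting interval 48.3 to 1463, edgeR adjusted p = 9.12e-05). Krt5 had 69, 27, 3 and 1 UMIs and Krt15 103, 40, 11 and 5, and Perp, a desmosome gene, had 51, 42, 6 and 2. Krt8 and Krt18, keratins of simple epithelia, rose from 11 and 1 to 96 and 73 UMIs and from 3 and 1 to 107 and 73 UMIs. Upk3bl, an uroplakin-like gene, had 0 UMIs in both control libraries and 27 and 25 in KO, at least 13.8-fold higher against a floor of 3 counts over the group. The lens filament gene Bfsp2 had 1, 2, 38 and 36 UMIs.

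In epithelial barcodes of the same libraries Krt14 and Krt8 split the arms in the same direction at higher levels. Krt14 was there at 1777, 982, 2.09 and 3.86 CPM, against 82.7, 50.8, 0.26 and 0.69 CPM in members, and Krt8 at 24.1, 3.69, 865 and 664 CPM, against 5.20, 0.48, 25.2 and 50.2 CPM. Bfsp2 was at 6.01, 8.73, 370 and 351 CPM and Kremen2, which fell in members by 2.97 ± 0.50 (edgeR adjusted p = 0.0345), at 353, 296, 59.9 and 56.3 CPM. The call for Kremen2 was lost without KO 1 (adjusted p = 0.0838) and without WT (0.109). Superficial cells had Krt14 at 174, 69.2, 0 and 1.01 CPM. The part of free or attached epithelial RNA in the members' values was not tested. With no epithelial marker allowed in any member, Krt14, Krt5, Krt15, Perp, Krt8 and Krt18 were still called. That setting leaves out cells and takes no keratin UMIs from the cells kept, so it cannot decide where this RNA came from.

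**Figure D5:**
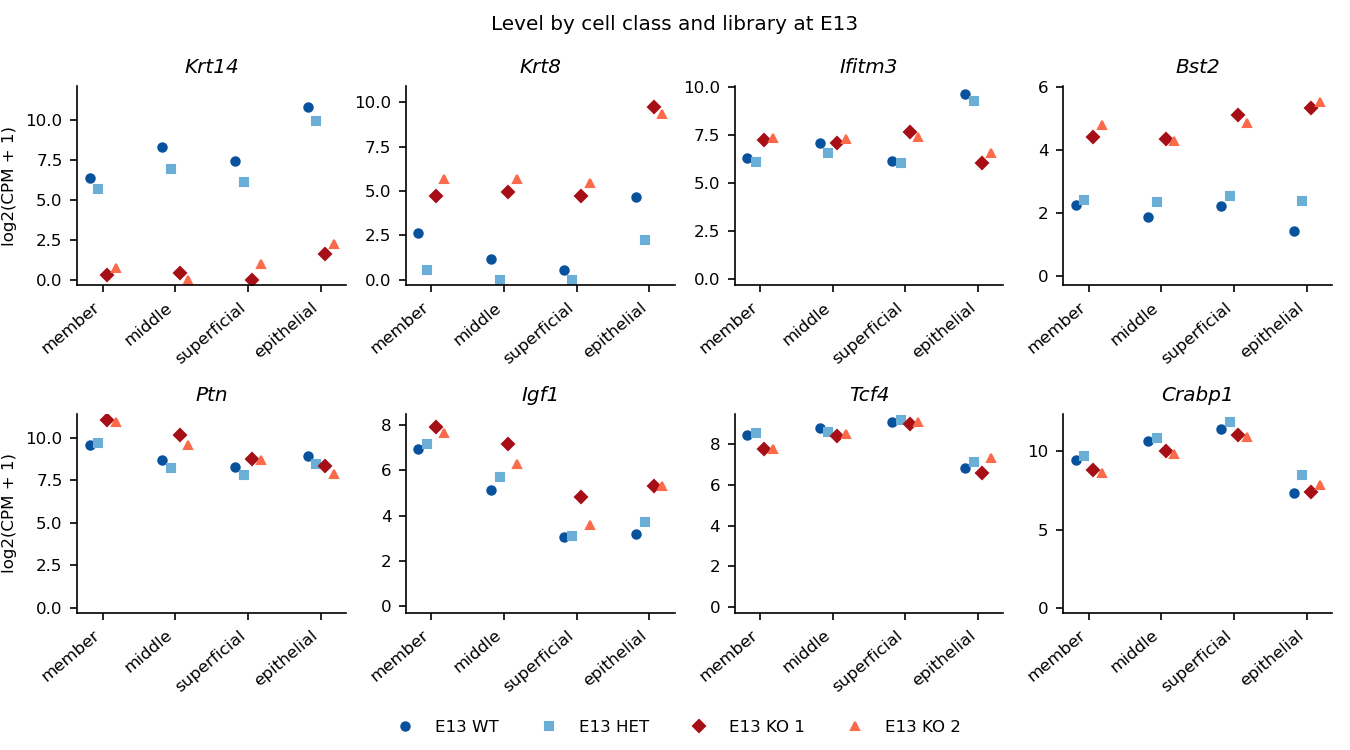
Level (y axis, log2 of CPM plus 1) of 8 called genes in members, middle cells, superficial cells and epithelial barcodes (x axis) with 1 point per E13 library. Krt14 and Krt8 split the arms in the same direction in all 4 classes, while Ifitm3 was higher in KO members but lower in KO epithelial barcodes.

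The remaining calls were of mixed kind. Prph, the gene of the neuronal filament peripherin, had 0 UMIs in control and 27 and 18 in KO, at least 11.96-fold higher against the same floor. The glutathione transferase gene Mgst3 rose by 1.09 ± 0.19 (edgeR adjusted p = 0.0345) and the small nucleolar RNA host gene Snhg12 by 0.92 ± 0.17 (0.0418). Zrsr1 and Gm10093 are uncertain because near-identical copies exist in the genome and reads could be divided between them: Zrsr1 had 5, 7, 61 and 19 UMIs and Gm10093, a predicted gene on chromosome 17, had 84, 52, 5 and 1 UMIs.

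Pathway lists were mixed. For all 10004 tested genes there were 29 rises and 12 falls, with a median log2 change of 0.00. The lower dermis, fascia and fat precursor list had 3 rises (Mfap5, Creb5 and Ebf2) and no fall among 17 tested genes, with a median log2 change of 0.26. The upper dermis list had 1 rise (Fgf7) and 2 falls (Crabp1 and Wif1) among 15, with a median of -0.27. Mesenchymal transcription factors had 2 rises (Ebf2 and Ebf3) and 1 fall (Tcf4) among 32, with a median of -0.02. The Wnt response list had none among 7 tested genes (median -0.30), Hedgehog none among 6, Notch none among 6 (0.03) and the BMP and TGF-beta list none among 24 (-0.09). Collagens and fibrillar matrix had none among 26 (median 0.01), small leucine-rich proteoglycans none among 8 (0.03) and basement membrane genes none among 12 (-0.12). The renin-angiotensin list had none among 6 (-0.21) and the VEGF list none among 7 (-0.30). S phase and G2 and M phase genes had none among 25 each, with medians of -0.16 and -0.13, and the dissociation and stress list none among 14 (-0.11). Cartilage markers had none among 4 tested (1.19) and tendon markers none among 5 (0.29). At 2 libraries an arm, a gene that did not pass is not shown to be equal.

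The KO effect was set against that in superficial cells of the same libraries, with the library as a block. By edgeR 50 of 10642 genes (0.470%) differed, 21 with a higher (0.197%) and 29 with a lower (0.273%) KO effect in members. The genes Zic4, Dkk2 and Igfbp5 stayed called with any 1 library left out. Zic4, a zinc finger gene of axial patterning, was at 70.5, 43.1, 32.7 and 25.4 CPM in members of WT, HET, KO 1 and KO 2 and at 99.8, 64.4, 114 and 111 CPM in superficial cells (difference -1.29 ± 0.19, edgeR adjusted p = 0.00537). Dkk2, a Wnt antagonist gene of the members' programme, was at 213, 158, 216 and 197 CPM in members and at 22.8, 16.1, 48.5 and 78.8 CPM in superficial cells (-1.35 ± 0.23, 0.0135). Its level overlapped between the arms in members and separated them in superficial cells. Igfbp5, of the IGF axis, was at 193, 317, 290 and 301 CPM in members and at 215, 315, 187 and 205 CPM in superficial cells (0.73 ± 0.11, 0.00537).

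Other named differences were lost when 1 library was left out. Dcn, the small proteoglycan gene decorin, was at 1236, 998, 958 and 1078 CPM in members and at 568, 564, 335 and 319 CPM in superficial cells (0.72 ± 0.11, edgeR adjusted p = 0.00589), and without HET the adjusted p was 0.0866. Klf4 was at 158, 105, 234 and 219 CPM in members and at 17.5, 15.4, 10.7 and 11.1 CPM in superficial cells (1.49 ± 0.26, edgeR adjusted p = 0.0188), and it was not called without KO 1 (0.217) or without HET (0.0787). Tcf4 differed by -0.53 ± 0.09 (edgeR adjusted p = 0.0197) and was not called without WT (0.0975) or without HET (0.198). Agtr2 and Nrgn were also called, but both are genes of the rule that separates the classes, so this is no finding. The haemoglobin genes moved with red-cell-dominated barcodes, of which superficial cells had 11, 13, 1 and 0 and members 0, 0, 0 and 1.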

How the data were processed

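Single-cell RNA of 4 E13 back skin libraries was used. The deposited matrices hold raw UMI counts per gene and barcode, made by the authors with Cell Ranger and Seurat on mm10 per the submitters' processing notes, with versions not given in the sources used here. The members and lists were chosen with earlier results of these data known. UMIs of members were summed per library (2099504, 2072814, 3789878 and 1443934 in WT, HET, KO 1 and KO 2) and tested with edgeR 4.0.16 in R 4.3.3 (quasi-likelihood, TMM scaling, minimum count 10, Benjamini-Hochberg limit 0.05, 2 residual degrees of freedom). Standard errors were derived as the log2 fold change divided by the square root of F. DESeq2 1.42.0 was an alternative. The fits were tested on simulated data. Members were clustered with scanpy 1.11.5 (2000 variable genes, 20 components, 15 neighbours, Leiden resolution 0.5), and doublets were weighed with scrublet as an alternative only. Named genes were those of the rule and Sfrp2, the 25 highest and 15 lowest programme genes, the 12 largest non-overlapping rises and falls, the 6 largest class differences in each direction, called or describing members of the lists, and 5 leading genes of each subcluster; a few items are not reported here. Ptn, Adh1, Zcchc5, Mgst3 and Snhg12 were named after their values were seen. Promoters came from RefSeq on GRCm38.p6. The limits of counting intervals cover counting error only.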

Additional observations from a re-analysis of the deposited data

Results flagged for a closer look

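For 11 genes given here the KO effect differed between members and superficial cells by edgeR, and they were among the largest differences in each direction. The differences in log2 change were -3.66 for Lyz2 (adjusted p = 0.0325), -3.61 for Gad2 (0.0325), -2.74 for Gria2 (0.0225), -1.84 for Sh3gl3 (0.0347), -1.76 for Plk2 (0.00434) and -1.73 for Stra6 (0.0347). Lyz2, a macrophage gene, was at 7.29, 13.3, 144 and 3.03 CPM in superficial cells of WT, HET, KO 1 and KO 2, so KO 1 alone was high, and without KO 1 the difference was 0.997. Each of the other 5 lost its call when 1 library was left out. On the higher side were 5 red cell genes: Hbb-bs at 3.74 (edgeR adjusted p = 0.0039), Hba-a2 at 3.95 (0.00537), Hba-a1 at 4.05 (0.00881), Hbb-bt at 4.19 (0.00537) and Alas2 at 4.91 (0.00624). Without cells of over 50% haemoglobin UMIs the adjusted p was 0.822 to 0.935 for these 5. The haemoglobin pairs are near-identical, so reads could have been divided between them.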

How the results depend on the processing

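The 41 genes called between KO and control became 23 with DESeq2, 228 with no filter on low counts, 10 with a minimum count of 30, 5 at B minus A of 3 or more, 12 at exactly 2, 18 with 1 UMI of lineage genes allowed, 12 with 8 libraries in the fit and 11 without subclusters 5 and 6, a setting chosen after seeing the data. With 1 library left out it was 148 to 196, of which 37 to 41 were shared with the 41. The lone library is then assumed to vary like the other arm. Ptn was called in each of these settings except with 8 libraries (adjusted p = 0.0643). The 50 class differences became 10 with DESeq2, 104 against all other mesenchymal cells and 145 with no filter, and 38 to 65 with 1 library left out. The difference in members' share, 15.3 points, was 9.54 after thinning and 9.40 at B minus A of 3 or more, and 13.4 to 17.2 with 1 library left out. Signs turned for the rule's genes. With 1 library left out Osr1 ran from -0.15 to 0.12, Agtr2 from -0.28 to 0.062, Ogn from -0.13 (without HET; -0.03 without KO 1) to 0.43, Osr2 from -0.54 to 0.41 (without WT; 0.03 without KO 2), Figf from -0.47 to 0.29 and the class difference of Lyz2 from -4.04 to 0.997. Osr1 was 0.018 with no epithelial marker and Ogn -0.10 at B minus A of 3 or more. The cause was not tested. No paired analysis was possible because the labels number only the KO libraries, so KO and control libraries share no number.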
